A study of Homo sapiens with 12 samples.

Results

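The genes described here copy DNA and supply its building blocks. They are 45 genes for origin licensing, helicase activation, DNA polymerases, the sliding clamp, deoxynucleotide synthesis, and chromatin assembly and repair behind the replication fork. They were chosen by name, as the rows of the deposited table whose Ensembl gene ID maps to a listed symbol. The list was drawn up with earlier results of these data known. Its counts beside the shares of all genes thus describe these 45 genes, and not replication genes at large. All 45 were found among 58051 genes, and all 45 were among the 17119 genes that had enough counts to be tested. The RNA came from macrophage-like cells of 1 line, THP-1, which was derived from a monocytic leukaemia and takes on macrophage traits under phorbol 12-myristate 13-acetate (PMA). There were 4 groups of 3 libraries: SDC3-knockout (SDC3-KO) cells with interferon gamma (IFN-γ), SDC3-KO cells without it, wild-type (WT) cells with IFN-γ, and WT cells without it. The knockout was made with CRISPR/Cas9 at SDC3, which encodes the cell-surface proteoglycan syndecan-3. All 4 groups were exposed to PMA (20 ng/ml, 24 h) before a medium change, and the treated groups got IFN-γ on the next day. How much IFN-γ was used, for how long, and how many edited lines there were is not in the labels. Nor do they tell whether separate cultures gave the 3 libraries of each group, so p-values measure the spread between these libraries, which may be technical. The study asked what syndecan-3 does in the pro-inflammatory activity of macrophages.

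Before a cell divides, the origin recognition complex, CDC6 and CDT1 load rings of MCM2 to MCM7 on DNA, and CDC45 and the GINS complex turn a loaded ring into a working helicase. Polymerases then copy both strands while the clamp PCNA holds them on the template, and ribonucleotide reductase and thymidylate synthase provide the deoxynucleotides. Many of these genes are transcribed at the entry into S phase under the control of E2F factors, and macrophages that have stopped dividing express them at low levels. PMA slows the division of THP-1 cells, and IFN-γ is known to arrest proliferating macrophages.

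Assigned counts ranged from 23616738 to 29426415 a library, so that 3 counts stood for 0.0924 to 0.130 CPM (counts scaled to a common library size by TMM factors). SDC3 itself had 237, 237 and 244 CPM in SDC3-KO cells with IFN-γ, against 578, 590.3 and 572 CPM in WT cells with IFN-γ. Without IFN-γ it had 49.9, 48.2 and 43.9 CPM in SDC3-KO cells, against 196, 252 and 242 CPM in WT cells. SDC3 reads were thus fewer in every SDC3-KO library than in every WT library of the same treatment, but they were not lost. The summed level of 10 macrophage markers was 5767 to 6025 CPM in SDC3-KO cells with IFN-γ, 5058 to 5287 CPM in SDC3-KO cells without it, 6175 to 6380 CPM in WT cells with IFN-γ, and 5311 to 5469 CPM in WT cells without it. Single macrophage markers moved between genotypes. With IFN-γ 5 of 10 were lower and 1 higher in SDC3-KO than in WT, where 24.3% of all genes tested were lower and 22.9% higher. Without it 6 were lower and 3 higher, where 24.8% and 25.4% of all genes were. For the difference of responses 4 were lower and 0 higher, where 7.86% and 7.61% of all genes were. The part of these markers in the results was not tested. All 10 genes listed as a check of the IFN-γ response were higher with IFN-γ in both genotypes. Their levels with IFN-γ differed between genotypes, with 9 higher and 1 lower in SDC3-KO than in WT, where 22.9% and 24.3% of all genes were. Their difference of responses was called higher for 2 and lower for 2, where 7.61% and 7.86% of all genes were called. T and B cell markers summed to at most 3.87 CPM, over the 2 of 6 that had enough counts to be tested. CD2 and MS4A1 had 0 counts in all 12 libraries. Epithelial and fibroblast markers summed to 8.72 to 20.3 CPM over the 2 of 9 tested, with KRT19 at 0. Granule genes of immature myeloid cells (MPO, ELANE, PRTN3, AZU1, CTSG and MS4A3) moved with both factors. Their sum was 83.7 to 97.5 CPM in SDC3-KO cells with IFN-γ, 196 to 220.4 CPM in SDC3-KO cells without it, 24.5 to 26.6 CPM in WT cells with IFN-γ and 134 to 143 CPM in WT cells without it. The part of this difference in the results below was not tested.

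With IFN-γ, nearly all of these 45 genes fell in both genotypes, and in SDC3-KO cells most of them fell further. In SDC3-KO cells 43 of 45 were lower with IFN-γ at an adjusted p under 0.05, and 2 were higher, by edgeR's test, where 31.8% of all genes tested were lower and 29.2% higher. In WT cells 42 were lower and 1 was higher, where 27.9% of all genes were lower and 28.6% higher. The median log2 fold change over the 45 was -1.50 in SDC3-KO and -1.04 in WT, beside -0.05 and -0.02 over all genes. A fall of at least 1 on the log2 scale was met by 30 members in SDC3-KO and 23 in WT, against 10.9% and 8.81% of all genes. In every one of the 45 genes the 3 SDC3-KO libraries with IFN-γ lay apart from the 3 without it, 43 below and 2 above, where 34.6% and 31.6% of all genes did. In WT cells 42 lay below and 1 above, where 30.3% and 30.2% of all genes did, and GINS3 and RPA2 were the 2 whose libraries overlapped. In bulk RNA, fewer cells in S phase and less of these transcripts per cell cannot be told apart.

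Expressed as the share of its untreated level, the median member kept 35.3% of its CPM with IFN-γ in SDC3-KO cells and 48.6% in WT cells. The shares ran from 1.66% for NEIL3 to 136% for POLD1 in SDC3-KO cells, and from 18.6% to 129% for the same 2 genes in WT cells. In SDC3-KO cells 9 members kept less than 10% and 17 less than 25%. In WT cells 0 members kept less than 10% and 2 less than 25%. Per length, the mean level ran from 0.0340 RPKM for CDCA7 to 36.2 RPKM for RPA2 in SDC3-KO cells with IFN-γ and from 0.860 RPKM for POLE2 to 32.1 RPKM for RPA2 without it. In WT cells it ran from 0.341 RPKM for POLE2 to 26.3 RPKM for RPA2 with IFN-γ, and from 1.19 RPKM for CHAF1B to 35.8 RPKM for PCNA without it. Summed over the 45 genes, the level was 588 ± 4.75 CPM in SDC3-KO cells with IFN-γ and 1280.1 ± 23.2 CPM without it, against 809.7 ± 49.9 CPM in WT cells with IFN-γ and 1409.8 ± 27.9 CPM without it (SD, n = 3 each). By role, the summed level kept 25.3% in SDC3-KO and 40.2% in WT cells for nucleotide supply, and 25.5% in SDC3-KO and 47.0% in WT cells for helicase activation (MCM8 included). For the clamp, its loader and the lagging strand it kept 65.9% in SDC3-KO and 73.2% in WT cells, a sum to which RPA2, which did not fall, gives 73.04 CPM in SDC3-KO cells with IFN-γ.

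**Figure D1:**
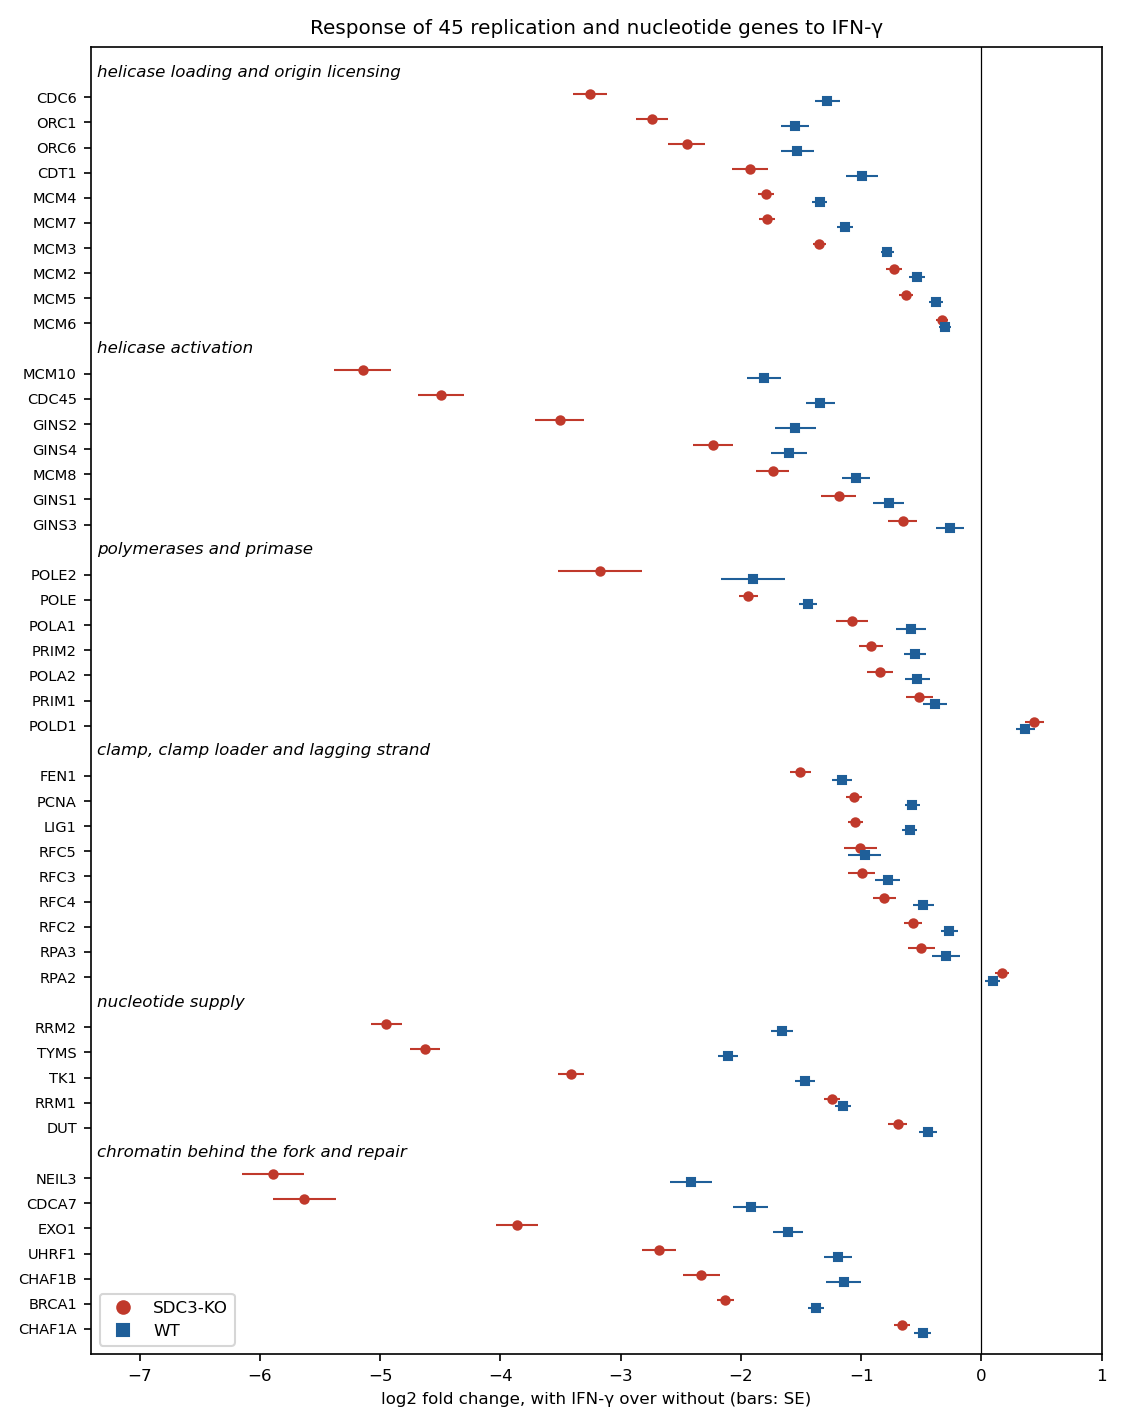
Log2 fold change with IFN-γ over without (x axis) of the 45 genes by role, in SDC3-KO (red circles) and WT (blue squares) cells, with SE bars. The longest falls are those of NEIL3 and CDCA7 in SDC3-KO cells, at -5.89 and -5.63, and POLD1 and RPA2 lie above 0.

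Among the genes of helicase loading and origin licensing, all 10 fell with IFN-γ in both genotypes, with a median log2 fold change of -1.79 in SDC3-KO and -1.06 in WT. In SDC3-KO cells the loading factors fell most. CDC6 had 2.11, 1.38 and 1.34 CPM in SDC3-KO cells with IFN-γ and 16.95, 14.99 and 14.2 CPM without it, against 9.22, 11.4 and 9.56 CPM in WT cells with IFN-γ and 24.4, 23.9 and 25.2 CPM without it. CDC6 (hg38 chr17:40287633-40304657), the ATPase that recruits the MCM ring, was thus lower with IFN-γ in both genotypes, and its treated SDC3-KO libraries lay below all 9 others. The CDC6 log2 fold change was -3.25 ± 0.14 (SE) in SDC3-KO and -1.28 ± 0.10 in WT, and the difference of -1.97 ± 0.18 had an edgeR adjusted p of 9.1e-10. ORC1 and ORC6, subunits of the origin recognition complex, kept 14.9% and 18.2% of their level in SDC3-KO cells, against 34.1% and 34.5% in WT cells. CDT1, the partner of CDC6, kept 26.4% in SDC3-KO and 50.3% in WT cells.

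The subunits of the MCM ring did not move alike. MCM2 had 32.7, 31.6 and 31.8 CPM in SDC3-KO cells with IFN-γ and 54.7, 53.6 and 51.1 CPM without it, against 38.96, 48.7 and 41.2 CPM in WT cells with IFN-γ and 58.7, 64.6 and 63.7 CPM without it. MCM5 had 48.6, 51.8 and 48.1 CPM in SDC3-KO cells with IFN-γ and 74.7, 79.05 and 75.9 CPM without it, against 65.7, 71.7 and 60.2 CPM in WT cells with IFN-γ and 83.5, 89.4 and 84.2 CPM without it. MCM6 had 55.04, 54.1 and 57.3 CPM in SDC3-KO cells with IFN-γ and 70.7, 65.6 and 72.8 CPM without it, against 59.4, 62.5 and 59.7 CPM in WT cells with IFN-γ and 74.2, 72.7 and 77.6 CPM without it. For these 3 ring subunits the libraries with IFN-γ lay below those without it in each genotype, and the treated SDC3-KO libraries also lay below the treated WT libraries. MCM6 (hg38 chr2:135839626-135876426) fell by 0.33 ± 0.05 (SE) on the log2 scale in SDC3-KO cells and by 0.30 ± 0.05 in WT cells, which left 79.6% and 80.9%. The difference of the 2 MCM6 falls was -0.02 with a 95% interval of -0.17 to 0.12 (edgeR adjusted p = 0.885), so the MCM6 falls could not be told apart at this precision. MCM2 kept 60.3% in SDC3-KO and 68.9% in WT cells, and its difference of -0.19 did not pass the test (edgeR adjusted p = 0.182, interval -0.38 to -0.01). MCM5 kept 64.7% in SDC3-KO and 76.9% in WT cells, and its difference of -0.25 passed narrowly (edgeR adjusted p = 0.0276) and was lost with RLE size factors. It was also lost without treated SDC3-KO replicate 1, 2 or 3, untreated SDC3-KO replicate 2, treated WT replicate 2 or untreated WT replicate 3, at -0.25 to -0.18. MCM3, MCM4 and MCM7 fell further, to 39.3%, 28.9% and 29.04% of the untreated level in SDC3-KO cells, against 58.2%, 39.3% and 45.5% in WT cells. Per length, MCM4 stood at 0.174 ± 0.0126 of the MCM6 level in SDC3-KO cells with IFN-γ and 0.479 ± 0.0247 without it, against 0.241 ± 0.0194 in WT cells with IFN-γ and 0.497 ± 0.0162 without it (ratio of RPKM, which is the level per gene length; SD, n = 3 each).

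Some of the deepest falls were those of genes that turn the loaded ring into a moving helicase. In SDC3-KO cells all 7 genes grouped with helicase activation fell and 4 had a difference of responses that passed the test (MCM10, CDC45, GINS2 and MCM8, which has another role, given below), where 7.86% of all genes had a more negative response in SDC3-KO cells. MCM10 had 0.405, 0.163 and 0.153 CPM in SDC3-KO cells with IFN-γ and 8.85, 7.46 and 9.49 CPM without it, against 3.29, 3.99 and 3.04 CPM in WT cells with IFN-γ and 12.7, 12.7 and 10.97 CPM without it. MCM10 (hg38 chr10:13161554-13211104) is needed to fire the assembled helicase, and its treated SDC3-KO libraries held 4 to 10 counts each. CDC45 had 0.405, 0.652 and 0.306 CPM in SDC3-KO cells with IFN-γ and 10.8, 10.3 and 9.62 CPM without it, against 5.45, 5.59 and 5.04 CPM in WT cells with IFN-γ and 11.9, 13.7 and 15.1 CPM without it. CDC45 (hg38 chr22:19479459-19520612) rides with the MCM ring at the fork. GINS2 had 0.486, 0.652 and 0.688 CPM in SDC3-KO cells with IFN-γ and 7.99, 6.76 and 6.23 CPM without it, against 2.36, 2.13 and 1.74 CPM in WT cells with IFN-γ and 6.86, 6.04 and 5.43 CPM without it. For all 3 genes the treated SDC3-KO libraries lay below every other library, and the treated WT libraries lay between them and the untreated ones. The difference of responses was -3.33 ± 0.32 (SE) for MCM10 (edgeR adjusted p = 2.1e-09), -3.15 ± 0.25 for CDC45 (edgeR adjusted p = 3.7e-11) and -1.96 ± 0.29 for GINS2 (edgeR adjusted p = 4.9e-06).

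The 4 GINS subunits, which form 1 complex, kept unequal shares with IFN-γ. In SDC3-KO cells GINS2 kept 8.70%, GINS4 21.3%, GINS1 43.9% and GINS3 63.5%. In WT cells GINS2 kept 33.98%, GINS4 33.02%, GINS1 58.5% and GINS3 83.5%. GINS3 had 5.35, 7.004 and 5.85 CPM in SDC3-KO cells with IFN-γ and 9.68, 9.12 and 9.84 CPM without it, against 8.86, 7.56 and 7.65 CPM in WT cells with IFN-γ and 9.15, 8.82 and 10.9 CPM without it. GINS3 was the member whose fall passed the test in SDC3-KO cells (-0.65 ± 0.12, edgeR adjusted p = 1.8e-05) and not in WT cells (-0.26 ± 0.12, edgeR adjusted p = 0.0562), where treated and untreated libraries overlapped. In WT cells GINS3 passed under RLE, upper-quartile and no scaling, with a filter at 5 CPM, and without treated WT replicate 1 or untreated WT replicate 2 (-0.51 to -0.27). The difference itself did not pass either (-0.39, interval -0.72 to -0.07, edgeR adjusted p = 0.116). Of the GINS4 exon bases 23.6% are shared with other genes, as are 10.9% of those of GINS3, and the file headers show no strand option, so reads of those genes may count for them. MCM8, a helicase of recombination repair, kept 30.02% in SDC3-KO and 48.6% in WT cells, and its difference of -0.70 passed the test (edgeR adjusted p = 0.00727).

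**Figure D2:**
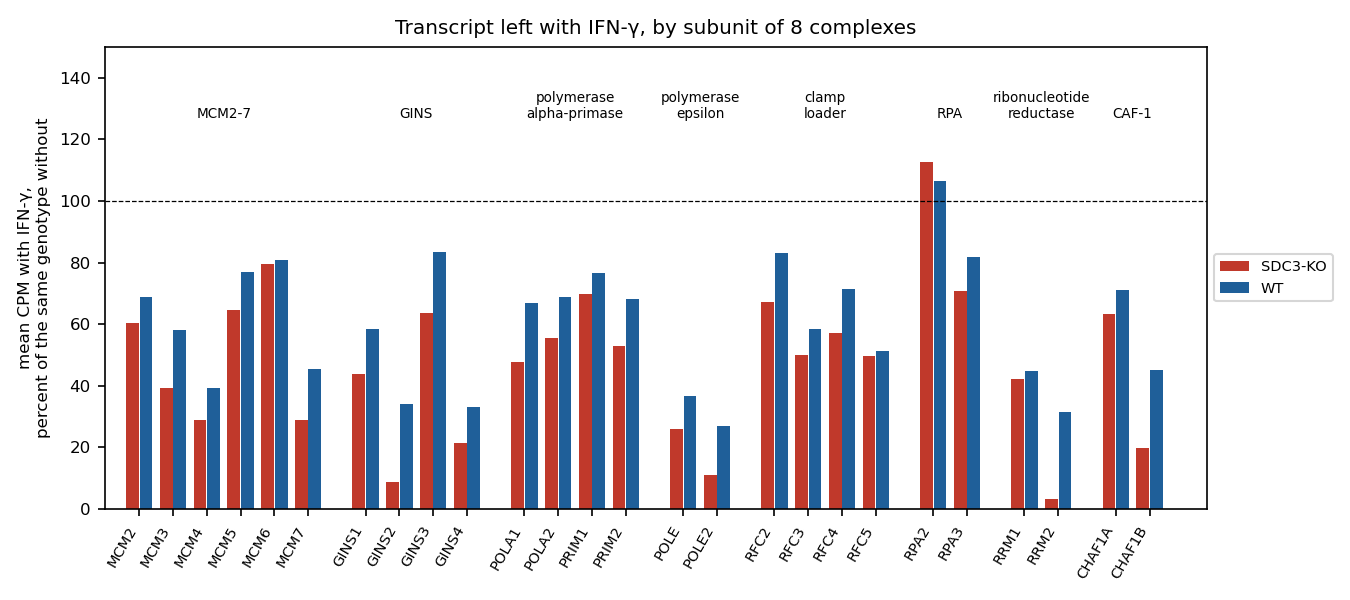
Mean CPM with IFN-γ as a percent of the mean CPM without it (y axis, linear from 0) for subunits of 8 complexes, SDC3-KO in red and WT in blue (n = 3 libraries per group; the dashed line is no change). In SDC3-KO cells MCM6 kept 79.6% and MCM4 28.9%, GINS3 63.5% and GINS2 8.70%, RRM1 42.3% and RRM2 3.23%, and CHAF1A 63.2% and CHAF1B 19.9%.

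Of the 7 polymerase and primase genes, 6 fell and POLD1 rose in both genotypes. POLD1 had 37.5, 35.9 and 36.1 CPM in SDC3-KO cells with IFN-γ and 28.9, 28.1 and 23.8 CPM without it, against 35.3, 41.2 and 35.1 CPM in WT cells with IFN-γ and 26.3, 31.3 and 29.01 CPM without it. POLD1 (hg38 chr19:50384204-50418018), the catalytic subunit of polymerase delta, shares 8.77% of its exon bases with another gene and was above its untreated level in every treated library of both genotypes. The POLD1 log2 fold change was 0.44 ± 0.08 (SE) in SDC3-KO (edgeR adjusted p = 1.1e-05) and 0.37 ± 0.08 in WT (edgeR adjusted p = 0.000144). Without scaling factors it was 0.14 and 0.11 and no longer passed the test, while the median of all genes then moved by -0.30 and -0.25. POLE2 had 0.527, 0.0814 and 0.229 CPM in SDC3-KO cells with IFN-γ and 2.63, 2.997 and 2.001 CPM without it, against 0.721, 0.912 and 1.39 CPM in WT cells with IFN-γ and 4.15, 3.45 and 3.66 CPM without it. POLE2, an accessory subunit of polymerase epsilon, was low throughout, with 2 to 13 counts in a treated SDC3-KO library. It fell in both genotypes, by 3.17 ± 0.35 on the log2 scale in SDC3-KO cells and by 1.90 ± 0.27 in WT cells, and the difference of -1.27 did not pass the test (interval -2.20 to -0.33, edgeR adjusted p = 0.0701). Leaving out treated SDC3-KO replicate 1, which held most of its counts, brought the difference to -2.07 (edgeR adjusted p = 0.00915). It passed as well without the filter on low counts (-1.26), without untreated SDC3-KO replicate 3 (-1.42) and without treated WT replicate 1 (-1.46). POLE, the catalytic subunit for the leading strand, kept 26.1% in SDC3-KO and 36.7% in WT cells. The polymerase alpha and primase subunits, which start each new strand, fell less: POLA1, POLA2, PRIM1 and PRIM2 kept between 47.6% and 69.7% in SDC3-KO cells, against 66.97% to 76.7% in WT cells. Of the 7 genes, POLE had a difference of responses that passed the test (-0.49, edgeR adjusted p = 0.00125).

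Of the 9 genes of the clamp, its loader and the lagging strand, 8 fell in each genotype, with a median log2 fold change of -0.995 in SDC3-KO and -0.574 in WT over all 9. PCNA had 19.9, 21.8 and 20.9 CPM in SDC3-KO cells with IFN-γ and 43.6, 40.9 and 46.1 CPM without it, against 34.4, 36.9 and 34.7 CPM in WT cells with IFN-γ and 54.9, 53.5 and 49.6 CPM without it. PCNA (hg38 chr20:5114953-5126626), the sliding clamp, separated all 4 groups without overlap, and it has 3 pseudogenes by name. The PCNA log2 fold change was -1.06 ± 0.07 (SE) in SDC3-KO and -0.57 ± 0.06 in WT, and the difference of -0.49 ± 0.09 had an edgeR adjusted p of 0.000209. FEN1 had 10.5, 10.2 and 8.45 CPM in SDC3-KO cells with IFN-γ and 27.4, 29.5 and 25.8 CPM without it, against 14.3, 13.5 and 14.7 CPM in WT cells with IFN-γ and 32.7, 32.4 and 30.02 CPM without it. FEN1, which trims the flaps of lagging-strand fragments, also separated the 4 groups, the untreated ones by little, with 27.6 ± 1.88 CPM in SDC3-KO and 31.7 ± 1.46 CPM in WT cells (SD, n = 3 each). Its difference of responses, -0.35 ± 0.12, passed at an edgeR adjusted p of 0.0489 and was lost when DESeq2 or limma-voom was used, with RLE size factors, and without the filter on low counts. It was also lost when any library was left out other than treated SDC3-KO replicate 1, untreated SDC3-KO replicate 3 and untreated WT replicate 1, at -0.38 to -0.25. RFC5 had 5.31, 5.17 and 5.66 CPM in SDC3-KO cells with IFN-γ and 10.6, 11.5 and 10.3 CPM without it, against 6.53, 3.84 and 6.13 CPM in WT cells with IFN-γ and 11.9, 10.8 and 9.56 CPM without it. For RFC5, a subunit of the clamp loader that shares 10.6% of its exon bases with other genes, the 2 genotypes overlapped with and without IFN-γ. It fell by 1.01 ± 0.14 on the log2 scale in SDC3-KO cells and by 0.97 ± 0.14 in WT cells, with an interval of -0.41 to 0.34 for the difference. RFC2, RFC3 and RFC4, its partners, kept 67.3%, 50.1% and 57.1% in SDC3-KO cells, against 83.1%, 58.3% and 71.4% in WT cells. LIG1, the ligase that joins the fragments, kept 48.3% in SDC3-KO and 66.1% in WT cells.

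RPA2, a subunit of the single-strand binding protein RPA, moved the other way in SDC3-KO cells. RPA2 had 73.9, 72.5 and 72.8 CPM in SDC3-KO cells with IFN-γ and 67.2, 61.3 and 65.96 CPM without it, against 48.3, 57.95 and 53.3 CPM in WT cells with IFN-γ and 53.7, 46.6 and 49.3 CPM without it. RPA2 (hg38 chr1:27891524-27914746) was higher with IFN-γ in SDC3-KO cells (0.17 ± 0.06, edgeR adjusted p = 0.0133), and in WT cells its libraries overlapped (0.09 ± 0.06, edgeR adjusted p = 0.200). This direction rests on the scaling: without scaling factors the RPA2 values were -0.12 in SDC3-KO and -0.16 in WT. The call in SDC3-KO cells was also lost with upper-quartile scaling (0.05), with a filter at 5 CPM (0.12) and when untreated SDC3-KO replicate 2 was left out (0.13). RPA2 has 3 pseudogenes by name and RPA3 has 2, and reads could be misassigned between gene and copy. RPA3, the smallest subunit, kept 70.6% in SDC3-KO and 81.7% in WT cells, a fall that passed the test in both.

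Among the genes of nucleotide supply, the subunits of ribonucleotide reductase parted. RRM2 had 1.38, 1.14 and 1.15 CPM in SDC3-KO cells with IFN-γ and 38.2, 38.2 and 37.01 CPM without it, against 11.7, 13.5 and 10.5 CPM in WT cells with IFN-γ and 42.4, 37.2 and 33.6 CPM without it. RRM2 (hg38 chr2:10122328-10131419) encodes the small subunit made in S phase and has 3 pseudogenes by name. Its untreated libraries overlapped between the genotypes, and its treated SDC3-KO libraries lay below all others. RRM1 had 24.1, 25.2 and 26.4 CPM in SDC3-KO cells with IFN-γ and 59.8, 57.4 and 61.99 CPM without it, against 23.3, 26.3 and 25.6 CPM in WT cells with IFN-γ and 59.2, 52.5 and 55.4 CPM without it. RRM1 (hg38 chr11:4094707-4138876), the large subunit, showed overlapping genotypes with and without IFN-γ. The RRM2 log2 fold change was -4.95 ± 0.13 (SE) in SDC3-KO and -1.66 ± 0.09 in WT, with a difference of -3.29 ± 0.17 (edgeR adjusted p = 2.5e-15). The RRM1 log2 fold change was -1.24 ± 0.06 in SDC3-KO and -1.15 ± 0.06 in WT, with a difference of -0.09 ± 0.09 (interval -0.27 to 0.09, edgeR adjusted p = 0.589). Per length, RRM2 stood at 0.0410 ± 0.00628 of the RRM1 level in SDC3-KO cells with IFN-γ and 0.534 ± 0.0288 without it, against 0.401 ± 0.0483 in WT cells with IFN-γ and 0.571 ± 0.0518 without it (RPKM ratio, SD, n = 3 each). RRM2B, the small subunit used outside S phase, had 60.6 ± 3.25 CPM in SDC3-KO cells with IFN-γ and 56.8 ± 2.87 CPM without it, against 55.9 ± 3.54 CPM in WT cells with IFN-γ and 51.1 ± 2.25 CPM without it (SD, n = 3 each). RRM2B passed the test with IFN-γ in neither genotype (0.09 ± 0.06 in SDC3-KO and 0.13 ± 0.06 in WT, log2 fold change and SE). The RPKM of RRM2 per RPKM of RRM2B was 0.0226 ± 0.00238 in SDC3-KO cells with IFN-γ and 0.747 ± 0.0499 without it, against 0.240 ± 0.0391 in WT cells with IFN-γ and 0.825 ± 0.0713 without it (SD, n = 3 each).

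The enzymes that make thymidylate also fell steeply in SDC3-KO cells. TYMS had 1.05, 0.774 and 1.11 CPM in SDC3-KO cells with IFN-γ and 25.4, 24.9 and 22.8 CPM without it, against 8.94, 9.20 and 9.13 CPM in WT cells with IFN-γ and 40.4, 37.7 and 39.6 CPM without it. TYMS (hg38 chr18:657604-673578) makes thymidylate from deoxyuridylate, and its 4 groups did not overlap. TK1 had 3.65, 3.50 and 3.71 CPM in SDC3-KO cells with IFN-γ and 41.1, 40.4 and 34.3 CPM without it, against 19.2, 24.2 and 18.1 CPM in WT cells with IFN-γ and 54.3, 60.7 and 55.3 CPM without it. TK1 (hg38 chr17:78174075-78187233) salvages thymidine in S phase, and its 4 groups did not overlap either, with the treated SDC3-KO libraries lowest and the treated WT libraries next. The difference of responses was -2.52 ± 0.17 (SE) for TYMS (edgeR adjusted p = 6.9e-13) and -1.95 ± 0.14 for TK1 (edgeR adjusted p = 8.0e-12). Of the TYMS exon bases 26.2% are shared with ENOSF1 and TYMSOS, its counts cannot be split from theirs by strand, and it has 2 pseudogenes by name. DUT, which destroys dUTP, fell less and kept 61.8% in SDC3-KO and 73.2% in WT cells. It has 8 pseudogenes by name and shares 14.5% of its exon bases with an antisense gene, so its counts are uncertain.

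**Figure D3:**
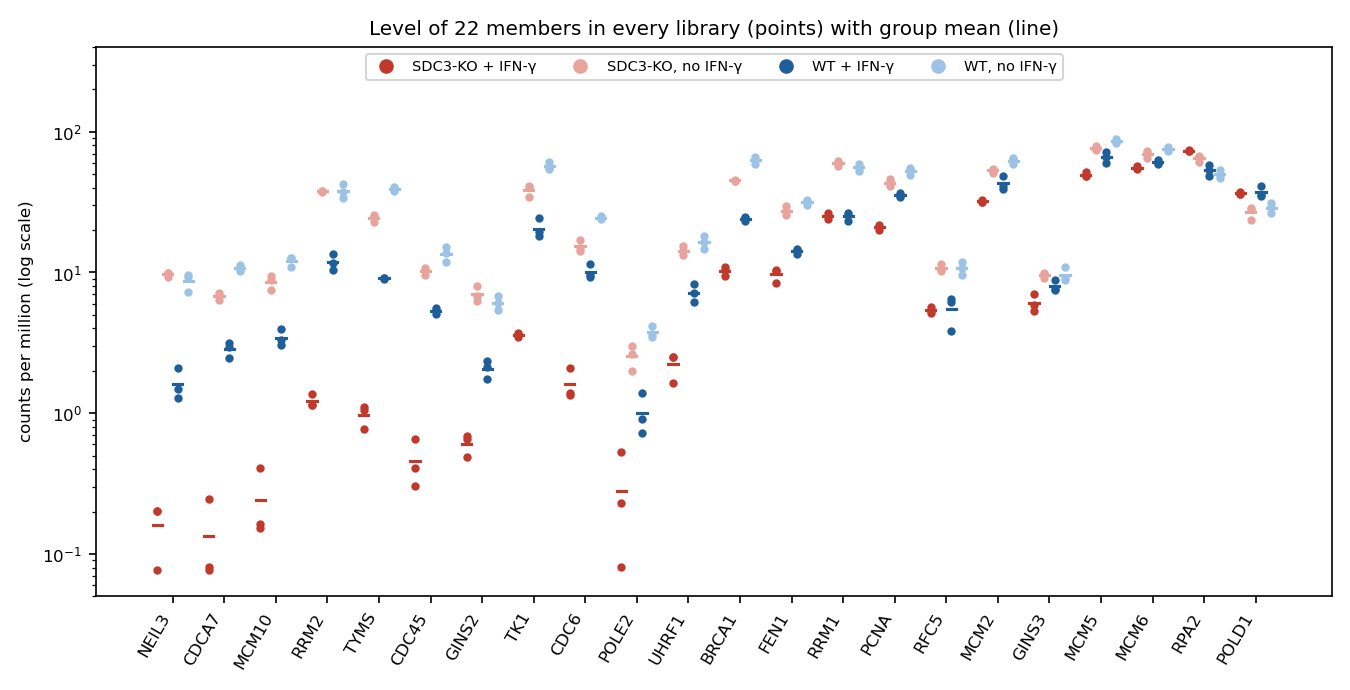
CPM in each library (points, log scale) and group mean (lines) of 22 members, from the deepest to the shallowest change in SDC3-KO cells. For NEIL3 to GINS2 the 3 treated SDC3-KO libraries lie at or under 1.38 CPM, and at the right end MCM6, RPA2 and POLD1 change little.

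Of the 7 genes for chromatin behind the fork and for repair, all fell in both genotypes, and 6 had a difference of responses that passed the test. CDCA7 had 0.0811, 0.244 and 0.0765 CPM in SDC3-KO cells with IFN-γ and 6.34, 6.82 and 7.20 CPM without it, against 2.48, 2.96 and 3.13 CPM in WT cells with IFN-γ and 10.98, 10.2 and 11.3 CPM without it. CDCA7 (hg38 chr2:173354820-173368997) recruits the remodeller HELLS to chromatin, and 2 of its treated SDC3-KO libraries held 2 counts, fewer than the 3 taken as the floor. NEIL3 had 0.203, 0.204 and 0.0765 CPM in SDC3-KO cells with IFN-γ and 9.86, 9.98 and 9.26 CPM without it, against 1.28, 2.09 and 1.48 CPM in WT cells with IFN-γ and 9.57, 9.28 and 7.25 CPM without it. NEIL3 (hg38 chr4:177309836-177362943) is a DNA glycosylase that works at replication forks, and its treated SDC3-KO libraries held 2 to 5 counts. For both genes the treated SDC3-KO libraries lay far below the others, and the untreated NEIL3 libraries of the 2 genotypes overlapped. The difference of responses was -3.71 ± 0.35 (SE) for CDCA7 (edgeR adjusted p = 2.0e-09) and -3.47 ± 0.38 for NEIL3 (edgeR adjusted p = 3.4e-08).

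UHRF1 had 2.51, 1.63 and 2.52 CPM in SDC3-KO cells with IFN-γ and 13.4, 14.2 and 15.4 CPM without it, against 6.17, 8.28 and 7.13 CPM in WT cells with IFN-γ and 14.7, 18.2 and 16.4 CPM without it. UHRF1, which brings DNA methyltransferase 1 to newly copied DNA, had overlapping untreated groups and separate treated groups. Its difference of responses was -1.49 ± 0.19 (edgeR adjusted p = 5.9e-07). BRCA1 had 11.02, 9.45 and 10.4 CPM in SDC3-KO cells with IFN-γ and 44.96, 45.5 and 44.7 CPM without it, against 23.2, 24.97 and 24.2 CPM in WT cells with IFN-γ and 62.5, 65.7 and 59.4 CPM without it. BRCA1, a factor of recombination repair, separated all 4 groups, with a difference of -0.76 ± 0.10 (edgeR adjusted p = 5.8e-07). EXO1, an exonuclease of mismatch repair, kept 6.80% of its untreated level in SDC3-KO cells and 32.7% in WT cells. The subunits of the histone chaperone CAF-1 parted like those of ribonucleotide reductase. CHAF1B kept 19.9% in SDC3-KO and 44.98% in WT cells, and CHAF1A kept 63.2% in SDC3-KO and 71.2% in WT cells. The CHAF1A difference was -0.17 (interval -0.37 to 0.02) and did not pass the test (edgeR adjusted p = 0.274), while that of CHAF1B was -1.18 and did (edgeR adjusted p = 0.00017).

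Over all 45 genes, 26 had a difference of responses that was called lower, meaning a deeper change with IFN-γ in SDC3-KO than in WT cells, and 0 were called higher, where 7.86% and 7.61% of all genes were called. The count of higher members was also 0 at an unadjusted p under 0.05 by edgeR, and DESeq2 and limma-voom called 0 higher. The median difference was -0.49 over the members and -0.03 over all genes, and 13 members were called with a difference of -1 or below, against 1.65% of all genes. The value was negative for 43 members, with POLD1 and RPA2 as the exceptions. Across the 45 genes the 2 log2 fold changes had a Pearson correlation of 0.90 and a Spearman correlation of 0.96, given as a description, since genes are not independent and 1 fit gave both. The order was not the same throughout: CDC45 had a log2 fold change of -4.49 in SDC3-KO and -1.34 in WT, beside -2.23 and -1.60 for GINS4. Of the 9 members that held fewer than 30 counts in a treated SDC3-KO library (CDC45, GINS2, MCM10, POLE2, RRM2, TYMS, CDCA7, NEIL3 and EXO1), 8 were among the 26. With these 9 left out, 18 of 36 members were called lower.

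**Figure D4:**
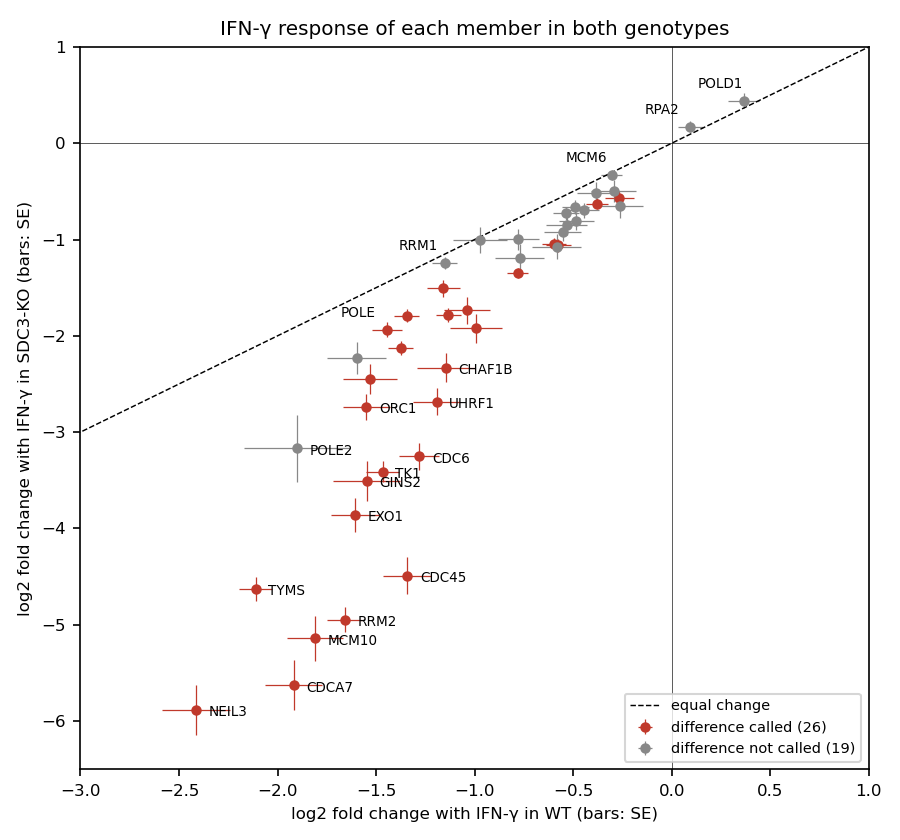
Log2 fold change with IFN-γ in WT (x axis) and in SDC3-KO (y axis) cells of the 45 genes, with SE bars; red points had a difference of responses that passed the test, and the dashed line marks equal change. The red points, 26 in all, lie under the line, and POLD1 and RPA2 lie at the upper right.

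Between genotypes, the members differed most with IFN-γ present. In treated cells 36 of 45 were lower in SDC3-KO than in WT and 1 was higher, where 24.3% of all genes were lower and 22.9% higher. In 37 genes the treated SDC3-KO libraries all lay below the treated WT libraries and in 1 above, where 27.5% and 26.8% of all genes did. The members' median log2 fold change was -0.76, beside -0.01 over all genes, and 17 members were lower by at least 1, against 7.15% of all genes. Without IFN-γ, 20 were lower in SDC3-KO and 5 were higher, where 24.8% and 25.4% of all genes were. There 23 lay wholly below and 5 wholly above, where 27.4% and 28.6% of all genes did. The median there was -0.16 over the members and 0.01 over all genes, and 0 members were lower by at least 1, against 6.1% of all genes. Granule genes of immature myeloid cells moved the other way with IFN-γ, with 4 of 6 higher and 1 lower in SDC3-KO than in WT, and without IFN-γ 4 were higher and 2 lower; their sums are given above. The 20 lower members were lower in both conditions, and they included CDC6, CDC45, MCM10, TYMS, TK1, CDCA7 and BRCA1. Another 15, RRM2, NEIL3, GINS2, UHRF1 and ORC1 among them, were called lower with IFN-γ and were not called without it. RRM2 was at 10.3% of the WT level with IFN-γ and at 100.2% without it, with an interval of -0.15 to 0.16 for its untreated log2 fold change. CDCA7 was at 4.68% of the WT level with IFN-γ and at 62.7% without it. Some untreated calls rest on single libraries: leaving one out ended the untreated call of POLE2 for any library but SDC3-KO replicate 2 (-0.62 to -0.41), of FEN1 for SDC3-KO replicate 1 or 3 or WT replicate 1 or 2 (-0.20 to -0.16), and of MCM5 for SDC3-KO replicate 1 or WT replicate 2 (-0.14 and -0.13). With IFN-γ the call of GINS3 ended without replicate 1 of either genotype (-0.32 and -0.33). RPA2 was higher in SDC3-KO in both conditions (0.46 ± 0.06 with IFN-γ and 0.38 ± 0.06 without it, SE).

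CHAF1B changed sides: it was lower in SDC3-KO with IFN-γ (-0.68 ± 0.18, edgeR adjusted p = 0.00209) and higher without it (0.51 ± 0.13, edgeR adjusted p = 0.00132). LIG1, CHAF1A and RFC2 were higher in untreated SDC3-KO cells as well, by 0.32, 0.33 and 0.20 on the log2 scale, and were not called with IFN-γ. Some members lie among genes that differ between the genotypes, and the 20 tested genes around each (14 for TYMS) give a measure of this. Their median log2 fold change was 0.42 with IFN-γ and 0.39 without it around CHAF1B, and 0.29 and 0.28 around LIG1. It was -0.57 with IFN-γ and -0.70 without it around PRIM1, whose own values were -0.83 and -0.70. Around TYMS it was -0.61 and -0.47, beside -3.21 and -0.69 for TYMS itself, and around RFC4 -0.31 and -0.38, beside -0.77 and -0.45. The part of the neighbourhood in the genotype differences of members was not tested. Around POLD1 it was -0.49 and -0.37, beside -0.03 and -0.10 for POLD1 itself. Without the members whose neighbours had a median of 0.3 or more in size, 32 were lower with IFN-γ and 16 without it. These counts are out of fewer than 45 members. The cut kept LIG1 and PCNA, whose neighbours came close to it. Around PCNA the median was -0.29 with IFN-γ and -0.23 without it, beside -0.76 and -0.27 for PCNA itself. Over all genes, with none left out, 24.3% and 24.8% were lower.

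**Figure D5:**
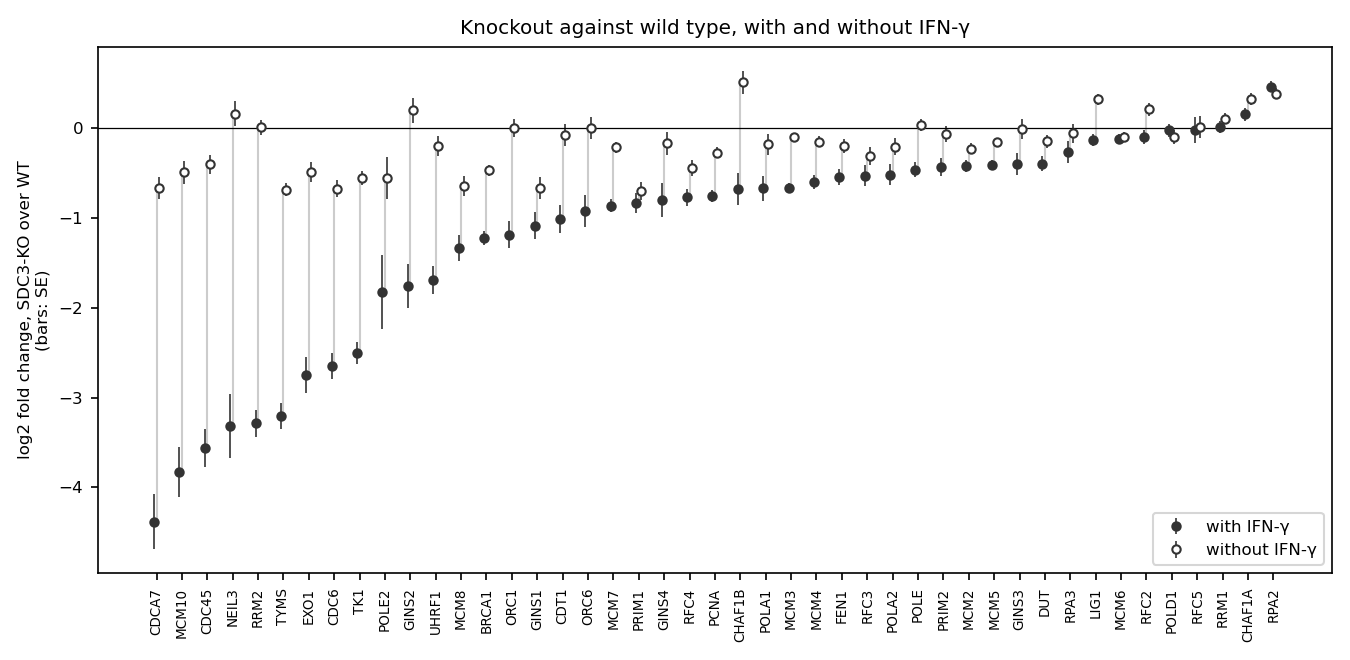
Log2 fold change of SDC3-KO over WT (y axis, SE bars) for the 45 genes, with IFN-γ (filled) and without it (open), ordered by the value with IFN-γ. With IFN-γ the values run from -4.38 for CDCA7 to 0.46 for RPA2, and without it they stay between -0.70 and 0.51.

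Of 115 further genes of the same pathways, 114 could be tested, and they were less uniform. The members and these further lists were drawn up with earlier results of these data known. The contrast thus describes the lists as chosen, and not the pathways. With IFN-γ 67 of the 114 were lower and 28 higher in SDC3-KO cells, where 31.8% of all genes tested were lower and 29.2% higher. In WT cells 66 were lower and 27 higher, where 27.9% and 28.6% of all genes were. The difference of responses was called lower for 28 and higher for 7, where 7.86% and 7.61% of all genes were called. Among 18 other origin and helicase genes, 14 fell in each genotype. They included TICRR, a factor for origin firing (-4.78 ± 0.18 in SDC3-KO and -2.14 ± 0.12 in WT, log2 fold change and SE), and the S-phase cyclin CCNA2 (-3.28 ± 0.10 and -1.99 ± 0.08). Among 21 other fork genes 12 fell and 6 rose in each genotype. The DNA topoisomerases TOP2A and TOP1 went opposite ways: TOP2A was at 8.89 ± 0.511 CPM in SDC3-KO cells with IFN-γ and 225 ± 6.22 CPM without it, against 46.1 ± 5.19 CPM in WT cells with IFN-γ and 271 ± 20.6 CPM without it. TOP1 was at 297 ± 3.44 CPM in SDC3-KO cells with IFN-γ and 137 ± 1.79 CPM without it, against 287 ± 4.46 CPM in WT cells with IFN-γ and 168 ± 10.4 CPM without it (SD, n = 3 each). POLB, a polymerase of base excision repair, rose to 61.5 ± 2.16 CPM in SDC3-KO cells with IFN-γ, against 25.9 ± 1.65 CPM without it, and WT cells had 53.4 ± 1.60 CPM with IFN-γ and 24.02 ± 0.867 CPM without it.

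The other genes of deoxynucleotide metabolism went both ways, at counts not far from the shares of all genes. Of 17, 4 fell and 5 rose in SDC3-KO cells, where 31.8% of all genes tested fell and 29.2% rose. In WT cells 6 fell and 6 rose, where 27.9% and 28.6% of all genes did. DTYMK, the kinase that phosphorylates thymidylate, fell by 1.57 in SDC3-KO and by 1.26 in WT cells. CMPK2, a mitochondrial nucleotide kinase known as an interferon-induced gene, was at 127.2 ± 4.98 CPM in SDC3-KO cells with IFN-γ and 3.91 ± 0.811 CPM without it, against 61.3 ± 1.92 CPM in WT cells with IFN-γ and 1.61 ± 0.443 CPM without it (SD, n = 3 each). TYMP, which breaks down thymidine, rose by 3.42 in SDC3-KO and 3.43 in WT cells. SAMHD1, which degrades deoxynucleotides, rose by 0.44 ± 0.03 in SDC3-KO and 0.61 ± 0.04 in WT cells (SE), and its difference of -0.16 passed the test (edgeR adjusted p = 0.0190). In purine and pyrimidine synthesis 12 of 24 fell and 10 rose in SDC3-KO cells, and 11 fell and 10 rose in WT cells. The shares of all genes beside these counts are those just given. The folate enzymes MTHFD2 (mitochondrial) and SHMT1 (cytosolic) had the largest rise and the largest fall among these 24 in both genotypes, at 2.77 and -1.97 in SDC3-KO and 2.32 and -1.49 in WT cells. MTHFD1L had a difference of responses of 0.83, a larger rise in SDC3-KO cells (edgeR adjusted p = 2.2e-07).

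Among 12 genes of chromatin assembly and methylation, 7 fell in each genotype, where 31.8% of all genes fell in SDC3-KO and 27.9% in WT cells. HELLS, the remodeller that CDCA7 recruits, fell by 3.38 in SDC3-KO and 1.01 in WT cells, a difference of -2.37 ± 0.25 (edgeR adjusted p = 1.8e-08). DNMT1, the methyltransferase that UHRF1 recruits, rose, by 0.25 ± 0.04 in SDC3-KO and 0.34 ± 0.04 in WT cells. Of 22 tested genes of replication-coupled repair, 18 fell in SDC3-KO and 16 in WT cells. XRCC2 and RAD54L, both of recombination repair, fell by 3.44 and 3.12 in SDC3-KO cells, against 2.44 and 1.48 in WT cells. Between genotypes, 55 of the 114 were lower and 19 higher in SDC3-KO with IFN-γ, where 24.3% and 22.9% of all genes were. Without IFN-γ 48 were lower and 23 higher, where 24.8% and 25.4% of all genes were. CDK2, a kinase that drives S phase, and TIMELESS, of the fork protection complex, were lower without IFN-γ, at -0.86 ± 0.09 and -0.81 ± 0.06 (SE). NME1, a nucleoside diphosphate kinase, was lower in both conditions (-0.89 ± 0.12 with IFN-γ and -1.10 ± 0.11 without it), and DONSON, a helicase assembly factor, was higher in both (0.65 ± 0.09 and 0.56 ± 0.08). Neighbours on the chromosome were taken for the members only. The part of the neighbourhood in the genotype differences of these further genes was not tested.

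E2F-type words were found in the promoters of most members that could be matched. The promoters, 250 bases before to 50 after each start, were taken from RefSeq (GRCh38.p14), where 40 of the 45 members matched; GINS4, MCM4, MCM5, RPA2 and RPA3 were not matched. The word TTCCCGC, the word TTGGCGC, the word TTCGCGC and the word TTGCCGC were searched on both strands, and a TTGGCGC can share bases with a TTCGCGC on the opposite strand. At least 1 word was present for 33 of 40 members (82.5%), against 15.3% of 27305 genes with a promoter in the table. The median GC content was 64.8% in the members' windows and 58.7% in all windows. The members without a word were CDC45, FEN1, MCM10, NEIL3, ORC6, POLD1 and PRIM2. A word was present for 19 of 24 members whose difference of responses was called and for 14 of 16 whose difference was not. It was present for 12 of 16 members that kept at most 25% of their level in SDC3-KO cells and for 21 of 24 that kept more. Whether these shares differ was not tested. Over all start sites of the members 56 words were found, of which 31 began within the 100 bases before the start. The 60-base stretches below are examples, taken only from members that have a word. Each is read 5′ to 3′ on the strand of its gene, with the words in capitals. The stretches lie before the gene's first base in the deposited table. CDCA7 kept 1.97% of its level in SDC3-KO cells (chr2:173354760-173354819, plus strand), POLE 26.1% (chr12:132687422-132687481, minus strand), PCNA 47.97% (chr20:5126648-5126707, minus strand) and MCM6 79.6% (chr2:135876496-135876555, minus strand).
CDCA7: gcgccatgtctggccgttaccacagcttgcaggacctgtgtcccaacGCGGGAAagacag
POLE: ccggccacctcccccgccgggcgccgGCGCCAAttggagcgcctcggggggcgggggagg
PCNA: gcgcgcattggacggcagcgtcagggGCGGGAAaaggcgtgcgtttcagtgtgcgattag
MCM6: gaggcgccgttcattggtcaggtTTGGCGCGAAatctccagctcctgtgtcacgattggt
In these stretches CDCA7 and PCNA carry TTCCCGC on the opposite strand (read here as GCGGGAA), POLE carries TTGGCGC on the opposite strand (GCGCCAA), and in MCM6 a TTGGCGC and an opposite TTCGCGC share bases. A match of letters is a description and does not show that a factor binds there.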

How the data were processed

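Polyadenylated RNA of 12 libraries was sequenced after stranded library preparation from 1 µg of total RNA, as the labels' protocols state. Read counts for 58051 genes (hg38) were deposited. Per the file headers, the authors counted reads over exons with featureCounts 2.0.3, taking primary alignments only and no chimeric pairs; the header holds no strand setting, and mates were counted separately, since no option to count a pair once was set. Also named in the submitters' processing notes are Subread, BWA, STAR 2.7.10b, fastp 0.23.2, Picard 2.27.5, MultiQC 1.13 and FastQC. Which aligner made the counted reads, and which annotation release was used, is not given in the sources used here.

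From the deposited counts were derived CPM (with TMM scaling), RPKM (with the deposited gene lengths) and percentages of mean CPM. Low genes were removed by filterByExpr at its defaults. The groups were compared with the quasi-likelihood test of edgeR 4.0.16, fitted once to all 12 libraries with no covariate. P-values were two-sided and adjusted over 17119 genes (Benjamini-Hochberg), and a call needed an adjusted p under 0.05. The SE was taken from the log2 fold change and its F statistic, and an interval spans 1.96 SE to either side, unadjusted. The floor of 3 counts covers counting error only, and both mates of a fragment can be among them. Replicates differed by more than the noise of independent counts (chi-square per degree of freedom 2.79 to 6.98), so none was merged. Mates counted separately are not independent and can raise this value. Members and gene lists were chosen with earlier results of these data known. So was the rule for genes given by library: 15 chosen genes, the 3 largest and 3 smallest differences of responses, and members not called lower with IFN-γ. Of each further list it takes up to 2 genes per direction and comparison at 5 CPM or more, not all of which are printed. The fits were tested on simulated counts, in which fewer genes changed than in these data. For the difference of responses they found 20% of 1.25-fold, 72% of 1.5-fold and 84% of 2-fold changes. For IFN-γ in SDC3-KO they found 54%, 90% and 94%. A member whose difference was not called may thus still have a small one. Alternatives were RLE, upper-quartile or no scaling, DESeq2 1.42.0, limma-voom (limma 3.58.1), other filters, fits of the compared groups alone, a block for the replicate number, each library left out, and calls limited to a change of 1 or more on the log2 scale. Counting without low-count members and without members among shifted neighbours were alternatives chosen after seeing the data. R 4.3.3 and Python 3.11.15 were used.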

Additional observations from a re-analysis of the deposited data

Results flagged for a closer look

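The responses to IFN-γ differed between SDC3-KO and WT cells for many of the genes, by a test of the difference itself in edgeR (the response in SDC3-KO minus that in WT, adjusted over all genes tested). It was called lower for 26 members and higher for 0, where 7.86% and 7.61% of all genes were called. At an unadjusted p under 0.05 by edgeR, 36 members were lower and 0 higher. Of all 17119 genes tested, 4578 passed that unadjusted threshold in either direction. Among genes given with values for every library, the difference on the log2 scale was largest for CDCA7 (-3.71), NEIL3 (-3.47), MCM10 (-3.33), RRM2 (-3.29), CDC45 (-3.15) and TYMS (-2.52). It was -1.97 for CDC6, -1.96 for GINS2, -1.95 for TK1 and -1.49 for UHRF1. It was smaller for BRCA1 (-0.76), PCNA (-0.49), FEN1 (-0.35) and MCM5 (-0.25), and the FEN1 and MCM5 calls were lost under several alternatives.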

How the results depend on the processing

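The number of members called lower moved by less than 1.5 times under every scaling, tool, filter, choice of libraries and replicate block tried. It was 42 to 43 for IFN-γ in SDC3-KO, 42 to 44 in WT, 23 to 30 for the difference of responses, and 36 to 40 with IFN-γ and 19 to 24 without it for SDC3-KO against WT. A log2 fold change of at least 1 left 23 members in WT, 13 for the difference, and 17 with IFN-γ and 0 without it between genotypes. Leaving out each library in turn gave 43 in SDC3-KO, 41 to 42 in WT, 23 to 29 for the difference, 35 to 38 with IFN-γ and 16 to 19 without it. RPA2 reversed without scaling factors, at -0.12 in SDC3-KO and -0.16 in WT; the cause was not tested. That setting and upper-quartile scaling moved the median of all genes by -0.30 and -0.12 in SDC3-KO and by -0.25 and -0.11 in WT. Of 1755 alternative values for 22 genes 1694 kept direction and side of the threshold, 39 lost a call and 20 gained one. No pairing by replicate number was seen: 2 of 18 same-numbered pairs of deviations correlated over 0.1. Correlations ran from -0.19 to 0.28 for same-numbered pairs and from -0.21 to 0.25 for others. With 3 libraries a group, this cannot exclude a pairing. With the replicate block the counts were 43, 42, 26, 37 and 19, MCM6 was called lower with IFN-γ between genotypes (edgeR adjusted p = 0.0492), as it was under 5 other alternatives, and POLE2 lost its call without it (edgeR adjusted p = 0.0555). The 8-letter words TTTCCCGC and TTTGGCGC, which contain 2 of the shorter ones, were found for 47.5% of members. Over all 27305 genes with a promoter in the table they were found for 2.75%. Of the members' levels the median, averaged over libraries, was 5.72 RPKM and 25.3 TPM. Depth limits POLE2, CDCA7, NEIL3 and MCM10, which held at most 13 counts in a treated SDC3-KO library. Of the members 18 share exon bases with other genes and 11 have pseudogenes by name, which limits single values.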
